A study of Homo sapiens with 9 samples.

Results

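The acute-phase plasma proteins are a group of 30 genes whose products the liver secretes into blood. Members were found by gene symbol, from a list of proteins that rise in inflammation and of plasma proteins such as ALB, TTR and AHSG that fall or hold steady. The table of the series held 28 of the 30 among its 24204 symbols, and CRP and APCS were not analysed here. Of the 28, 24 passed the expression filter, FPKM of at least 1 in at least 3 libraries, and SAA1, SAA2, LBP and GC did not. FPKM is the number of fragments per kilobase of gene, scaled to the mapped fragments of the library. The list was taken up once the low values of HP and other members with both hairpins against the control were known from these libraries. Values against the control are therefore a description. No p is given for them, and calls against shCtrl only sort the members by the rule applied to all genes and are no evidence for the list. P-values between the hairpins are given, but a difference of hepatocyte secreted genes between the hairpins was also known by then. They are therefore not independent tests of a direction.

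Hepatocytes answer tissue injury and infection by changing what they secrete, and this is called the acute-phase response. Interleukin-6 acts through its receptor, gp130, Janus kinases and STAT3, and interleukin-1 acts through NF-kappaB. Both signals meet C/EBP factors at the promoters of the responding genes. Positive acute-phase proteins bind haemoglobin, form clots or hold proteases in check, and negative ones are mostly carriers of hormones, vitamins and fatty acids.

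The study used HepG2, a line grown from a human liver tumour, and sequenced 9 libraries in 3 groups of 3. Cells were infected for 48 h with lentivirus expressing a control short hairpin RNA (shCtrl) or a hairpin against TRIB3 (shTRIB3-1 or shTRIB3-2) and were then kept in puromycin for 48 h, so each group was a selected pool and not a clone. TRIB3 encodes a pseudokinase induced by amino acid shortage. The labels name high-glucose DMEM with 10% serum, and the study's account of its TRIB3 knockdown RNA-seq names no glutamine deprivation. Its RNA-seq methods, which also cover a glutamine series, speak of cells deprived of glutamine. The medium shared by all 3 groups was therefore not fully certain.

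The hairpin targets are shown because the hairpins differed in their effect on many members. Both lie in coding exons of TRIB3 on GRCh38, at chr20:388072-388092 in exon 2 of 4 for shTRIB3-1 and at chr20:391473-391493 in exon 3 of 4 for shTRIB3-2, and each runs 21 bases.
shTRIB3-1: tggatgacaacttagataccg
shTRIB3-2: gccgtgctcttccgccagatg
TRIB3 stood at 67.9, 65.8 and 66.6 FPKM in the shCtrl libraries, at 34.1, 32.7 and 34.0 with shTRIB3-1 and at 20.6, 20.7 and 20.4 with shTRIB3-2. The log2 fold change of TRIB3 against shCtrl was -0.99 ± 0.03 (SE, n = 3 each) with shTRIB3-1 and -1.70 ± 0.03 with shTRIB3-2, so the transcript was lower with shTRIB3-2 (limma, adjusted p = 9.54e-09).

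Depth was 34206726 to 36311029 fragments per library. Mitochondrial genes took 5.3 to 6.1% of fragments in shCtrl and 6.29 to 7.22% in the knockdown libraries, and the part of that gap in the results was not tested. The summed FPKM of 6 hepatocyte markers was 3243 to 3477 in shCtrl, 3476 to 3596 with shTRIB3-1 and 4002 to 4182 with shTRIB3-2, but its genes lay on both sides of shCtrl. With shTRIB3-1, APOA1 was at 154.5% of the shCtrl mean, AFP at 98.8%, TF at 91.9%, HNF4A at 85.1%, APOB at 80.7% and SERPINA1 at 73.7%, and with shTRIB3-2 they were at 162%, 160.4%, 109%, 95.3%, 93.6% and 97.6%. Of 4 markers each, the macrophage genes MARCO and PTPRC, the endothelial genes CDH5 and KDR, the fibroblast genes COL1A1 and DCN and the cholangiocyte gene CFTR stayed under 0.1 FPKM in every library. KRT19 stood at a mean of 234, 632 and 622 FPKM in shCtrl, shTRIB3-1 and shTRIB3-2, while SOX9, also a cholangiocyte marker, stood at 41.2, 23.4 and 19.3. The summed cholangiocyte markers ran from 268.9 to 285 FPKM in shCtrl and from 630.9 to 675 with the hairpins. The endothelial sum ran from 0.214 to 0.314 over all libraries. The macrophage sum, nearly all CD68, ran from 28.9 to 35.0 in shCtrl, 36.0 to 39.0 with shTRIB3-1 and 32.3 to 34.3 with shTRIB3-2. The fibroblast sum, nearly all ACTA2, ran from 55.6 to 63.1, 39.3 to 41.7 and 54.5 to 57.8 in the same order. The part of these markers in the members' values was not tested, and in bulk RNA fewer cells of a type and less RNA per cell cannot be told apart.

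The promoter stretches of 6 members are shown so that those holding letters bound by textbook acute-phase factors can be set beside AMBP. Like IL1RN and ITIH3, AMBP held none of those searched. Each stretch runs 210 bases, from 250 to 41 bases before the RefSeq start (GRCh38.p14), and capitals mark a match to 1 of 5 motifs on either strand. ITIH4, ALB and AMBP are the members with an entry among those with the lowest and highest mean log2 fold change over both hairpins. FGA, FGB and LRG1 were added after their values were seen.
ITIH4: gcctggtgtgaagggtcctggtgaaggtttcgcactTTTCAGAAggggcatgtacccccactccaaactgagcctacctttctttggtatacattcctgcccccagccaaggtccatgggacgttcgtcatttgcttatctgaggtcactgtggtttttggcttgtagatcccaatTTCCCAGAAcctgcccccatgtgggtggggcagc
LRG1: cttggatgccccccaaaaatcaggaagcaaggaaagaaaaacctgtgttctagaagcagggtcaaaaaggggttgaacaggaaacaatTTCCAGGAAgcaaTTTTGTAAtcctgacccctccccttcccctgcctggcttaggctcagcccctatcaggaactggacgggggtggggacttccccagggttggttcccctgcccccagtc
FGA: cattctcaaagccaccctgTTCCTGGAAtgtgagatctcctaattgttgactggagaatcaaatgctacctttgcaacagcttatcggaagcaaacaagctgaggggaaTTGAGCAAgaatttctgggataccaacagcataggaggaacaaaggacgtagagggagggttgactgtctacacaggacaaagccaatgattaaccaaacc
FGB: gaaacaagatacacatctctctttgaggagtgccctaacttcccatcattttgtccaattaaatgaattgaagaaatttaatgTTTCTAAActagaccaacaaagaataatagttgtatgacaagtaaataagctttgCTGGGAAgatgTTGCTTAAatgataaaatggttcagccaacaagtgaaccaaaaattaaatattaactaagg
AMBP: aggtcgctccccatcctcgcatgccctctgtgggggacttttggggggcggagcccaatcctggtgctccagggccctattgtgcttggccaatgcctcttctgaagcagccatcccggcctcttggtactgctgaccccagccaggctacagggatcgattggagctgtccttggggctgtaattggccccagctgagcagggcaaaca
ALB: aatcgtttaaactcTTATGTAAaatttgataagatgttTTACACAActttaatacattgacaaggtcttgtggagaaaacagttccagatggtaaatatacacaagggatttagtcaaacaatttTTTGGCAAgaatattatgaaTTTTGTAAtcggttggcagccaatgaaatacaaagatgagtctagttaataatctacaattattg
They lie at chr3:52830713-52830922 on the minus strand for ITIH4, chr19:4540077-4540286 (minus) for LRG1, chr4:154590783-154590992 (minus) for FGA, chr4:154562730-154562939 (plus) for FGB, chr9:114078341-114078550 (minus) for AMBP and chr4:73404037-73404246 (plus) for ALB. The STAT letters TTCNNNGAA stood 74 bases before the start of ITIH4, where they overlap the interleukin-6 element core CTGGGAA, 162 bases before that of LRG1 and 231 bases before that of FGA. FGB held the CTGGGAA core at 112 bases, and ALB held 4 matches to the C/EBP letters TTNNGNAA. None of the 5 motifs was found in the 250 bases of AMBP.

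Of the 30 members, 18 had a promoter entry, and the motifs were counted over the 250 bases before each of 35116 RefSeq starts. The C/EBP letters stood in 13 of the 18 members and in 33.2% of all promoters, the STAT letters in 4 (AGT, ITIH4, FGA, LRG1) and in 6.57%, and the CTGGGAA core in 6 (APCS, AGT, ITIH4, FGB, FGG, HPX) and in 9.15%. HNF4 letters (CAAAGTCCA) stood in 1 (AHSG) and in 0.325% of all, and NF-kappaB letters (GGNNTTTCC) in 3 (ITIH1, FGG, ORM1) and in 5.48%. Only the first listed start was used for ITIH1 and IL1RN (3 listed each) and FGB (2), whereas the shares count every start. The ITIH1 window, chr3:52778236-52778485, lies inside the gene, which spans chr3:52777595-52792068. Its NF-kappaB match is therefore not in sequence before the gene. These matches are letters in a sequence, not measured binding. Members with the STAT letters ranged from a log2 fold change of -3.16 for ITIH4 to -0.31 for AGT with shTRIB3-1, so a match did not go with 1 size of difference.

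Among the 24 members tested, 11 were called lower with shTRIB3-1 at an adjusted p under 0.05 and an absolute log2 fold change above 1, where 6.1% of all 11265 tested genes were called lower. With shTRIB3-2, 7 of 24 were called lower, beside 6.27% of all tested genes. TTR was the only member called higher with either hairpin, beside 5.39% of all tested genes with shTRIB3-1 and 6.06% with shTRIB3-2. Called with both hairpins in the same direction were 8 members: HP, HPR, CP, FGG, IL1RN, ITIH4, LRG1 and TTR. The share of all tested genes called with both hairpins is not given here. Both hairpins were compared with the same shCtrl libraries, and the members were chosen with these differences known, so nothing is read from these counts. The median log2 fold change over the 24 members was -0.89 with shTRIB3-1 and -0.45 with shTRIB3-2, beside -0.056 and -0.035 over all tested genes.

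**Figure D1:**
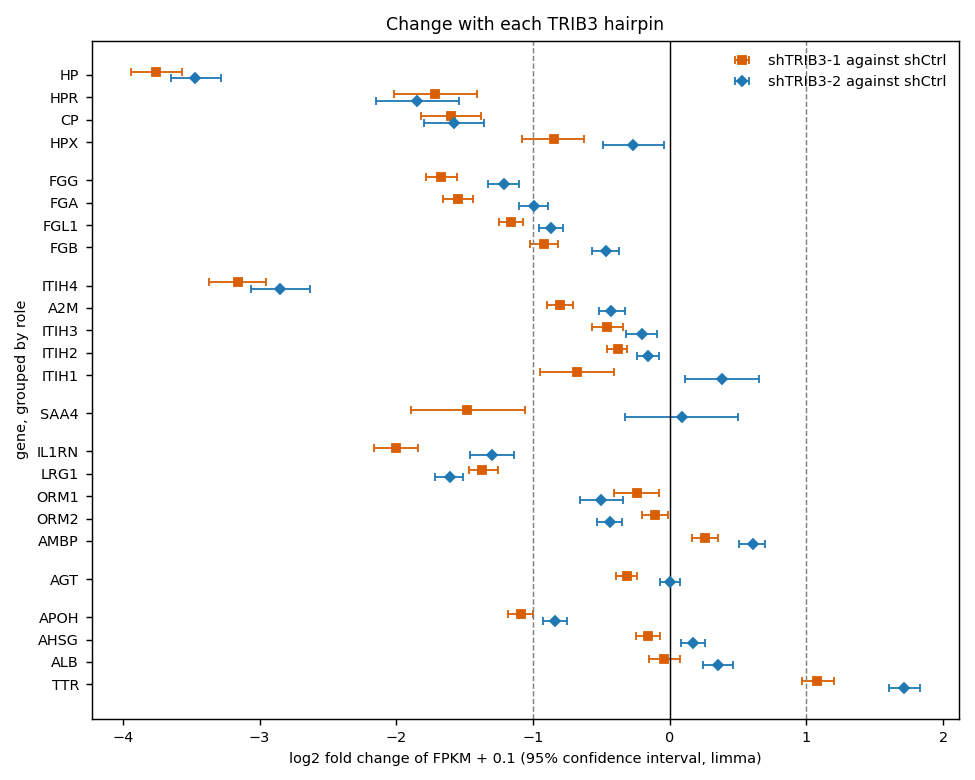
Log2 fold change of FPKM + 0.1 against shCtrl (x axis) for each of the 24 tested members (y axis, grouped by role), squares for shTRIB3-1 and diamonds for shTRIB3-2, with 95% confidence intervals from limma and dashed lines at a log2 fold change of 1 in either direction. HP and ITIH4 lie furthest left with both hairpins, TTR lies furthest right, and the diamonds lie to the right of the squares for most members.

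Within shCtrl the members covered a wide range of levels. ALB ranked 6 among all symbols by mean FPKM, at 5213 ± 249 (SD, n = 3), while SAA1 and SAA2 were near 0. Together the 28 members made up 3.94% ± 0.188 of the summed FPKM in shCtrl, 2.88% ± 0.098 with shTRIB3-1 and 3.76% ± 0.0631 with shTRIB3-2. Without ALB the shares were 2.55% ± 0.116, 1.57% ± 0.0497 and 2.02% ± 0.0459.

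**Figure D2:**
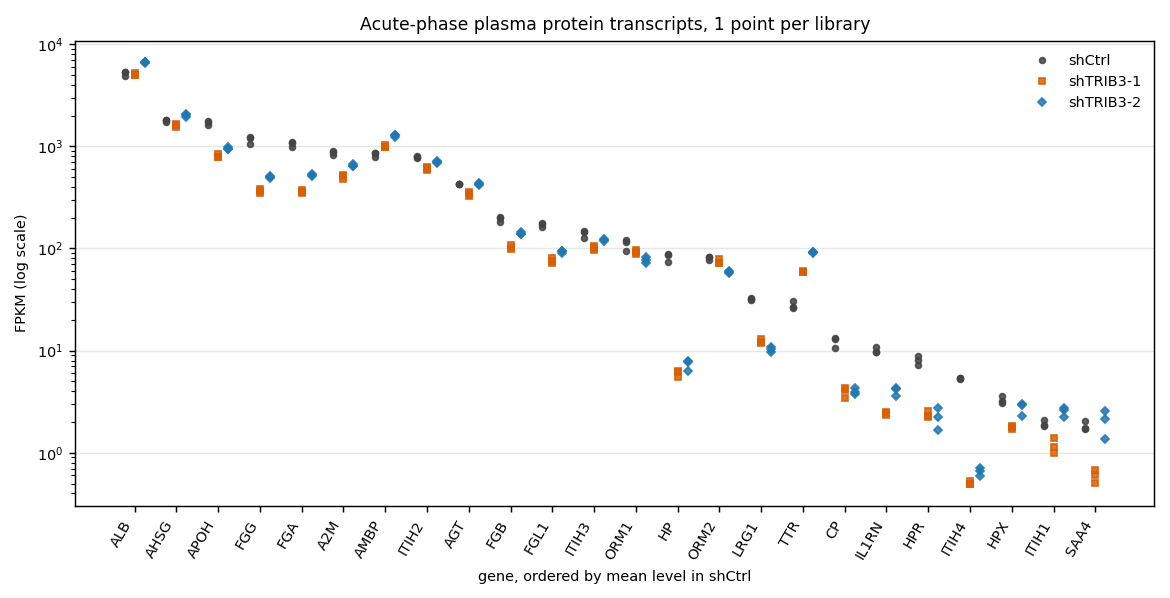
FPKM (y axis, log scale) of the 24 tested members (x axis, ordered by mean level in shCtrl), 1 point per library, circles for shCtrl, squares for shTRIB3-1 and diamonds for shTRIB3-2. HP and ITIH4 show the widest gap between the shCtrl circles and the hairpin libraries, and TTR is the member whose hairpin libraries lie furthest above the circles.

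The haemoglobin, haem and copper binders were lowest of the roles with several tested members, with a median log2 fold change of -1.66 with shTRIB3-1 and -1.71 with shTRIB3-2. HP, haptoglobin, captures free haemoglobin and is encoded at chr16:72054505-72061055 (positions of genes are from GENCODE 44 on GRCh38). HP stood at 74.4, 85.9 and 87.5 FPKM in shCtrl, at 5.56, 6.18 and 6.28 with shTRIB3-1 and at 7.985, 6.39 and 7.82 with shTRIB3-2. Every hairpin library lay far below every shCtrl library, at a mean of 7.27% and 8.96% of the shCtrl level. The log2 fold changes of HP were -3.76 ± 0.086 and -3.47 ± 0.086 (SE, n = 3 each). HP was slightly higher with shTRIB3-2 than with shTRIB3-1, by 0.29 on the log2 scale (limma, adjusted p = 0.0156). That call was lost without 1 of shTRIB3-1 replicate 1, shTRIB3-2 replicate 1 or shTRIB3-2 replicate 3, where the adjusted p was 0.0631, 0.0664 and 0.0631.

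HPR, the haptoglobin-related protein carried on a subset of HDL, is a close copy of HP that starts 2.09 kb after it, so fragments could have been shared between the pair. HPR stood at 7.32, 8.13 and 8.79 FPKM in shCtrl, at 2.59, 2.32 and 2.24 with shTRIB3-1 and at 2.72, 2.24 and 1.66 with shTRIB3-2. Both hairpin groups lay below shCtrl and overlapped each other. The log2 fold changes of HPR were -1.72 ± 0.14 and -1.85 ± 0.14, smaller in size than those of HP, and the ratio of HPR to HP was 0.0978 ± 0.00295 (SD, n = 3) in shCtrl, 0.399 ± 0.0579 with shTRIB3-1 and 0.302 ± 0.0772 with shTRIB3-2. The HPR difference between hairpins was -0.13, with a 95% confidence interval from -0.43 to 0.18 (limma, adjusted p = 0.484).

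CP, ceruloplasmin, is the copper-carrying ferroxidase of plasma. CP stood at 10.6, 12.9 and 13.4 FPKM in shCtrl, at 4.16, 3.46 and 4.34 with shTRIB3-1 and at 4.33, 3.775 and 3.98 with shTRIB3-2. The hairpin groups overlapped each other and lay below shCtrl, with log2 fold changes of -1.60 ± 0.1 and -1.58 ± 0.1. Their difference was 0.02, with an interval from -0.20 to 0.24 (adjusted p = 0.892). Of CP exon bases, 20.1% also lie in exons of HPS3 on the other strand, whose reads cannot be told apart if counting ignored strand.

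HPX, hemopexin, binds free haem. HPX stood at 3.25, 3.60 and 3.05 FPKM in shCtrl, at 1.84, 1.70 and 1.79 with shTRIB3-1 and at 2.91, 2.30 and 2.985 with shTRIB3-2. The shTRIB3-1 libraries lay apart from the rest, while the highest shTRIB3-2 library came close to the lowest shCtrl library. Against shCtrl, HPX had log2 fold changes of -0.85 ± 0.1 and -0.27 ± 0.1, and the hairpins differed by 0.59 (adjusted p = 6.64e-04).

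The fibrinogen genes lie together on chromosome 4, with FGB at chr4:154563011-154572807, FGA at chr4:154583126-154590742 and FGG at chr4:154604134-154612967, separated by 10.3 and 13.4 kb. Their products are the chains of fibrinogen, the protein that thrombin turns into the fibrin of a clot. FGA stood at 974.5, 1085 and 1108 FPKM in shCtrl, at 359.6, 346 and 375 with shTRIB3-1 and at 539.8, 529 and 518 with shTRIB3-2. FGG stood at 1064, 1194 and 1221 FPKM in shCtrl, at 362, 349 and 381 with shTRIB3-1 and at 509, 504 and 485 with shTRIB3-2. FGB stood at 182, 200.6 and 204 FPKM in shCtrl, at 101, 99.75 and 109 with shTRIB3-1 and at 145, 139.9 and 139 with shTRIB3-2. In each of the 3 genes the groups did not overlap, with shCtrl highest and shTRIB3-1 lowest.

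The chains did not differ by the same amount. Against shCtrl the log2 fold change was -1.55 ± 0.048 for FGA, -1.67 ± 0.051 for FGG and -0.92 ± 0.046 for FGB with shTRIB3-1 (SE, n = 3 each). With shTRIB3-2 it was -0.99 for FGA, -1.21 for FGG and -0.47 for FGB, with the same standard errors. The ratio of FGB to FGG in FPKM was 0.169 ± 0.00244 in shCtrl, 0.284 ± 0.00327 with shTRIB3-1 and 0.283 ± 0.00499 with shTRIB3-2 (SD, n = 3), and that of FGA to FGG was 0.911 ± 0.0049, 0.989 ± 0.00509 and 1.06 ± 0.00911. Between hairpins the 3 chains were higher with shTRIB3-2 by 0.56 for FGA, 0.46 for FGG and 0.45 for FGB (limma, adjusted p = 2.99e-06, 2.37e-05 and 9.46e-06).

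FGL1, fibrinogen-like protein 1, is a hepatocyte-secreted protein outside the cluster, on chromosome 8. FGL1 stood at 162, 172 and 177 FPKM in shCtrl, at 72.8, 75.7 and 80.1 with shTRIB3-1 and at 94.7, 91.1 and 93.5 with shTRIB3-2. As for the fibrinogen chains, shCtrl was highest and shTRIB3-1 lowest without overlap. For FGL1 the log2 fold changes were -1.16 ± 0.041 and -0.87 ± 0.041, and the hairpins differed by 0.29 (adjusted p = 1.44e-04).

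**Figure D3:**
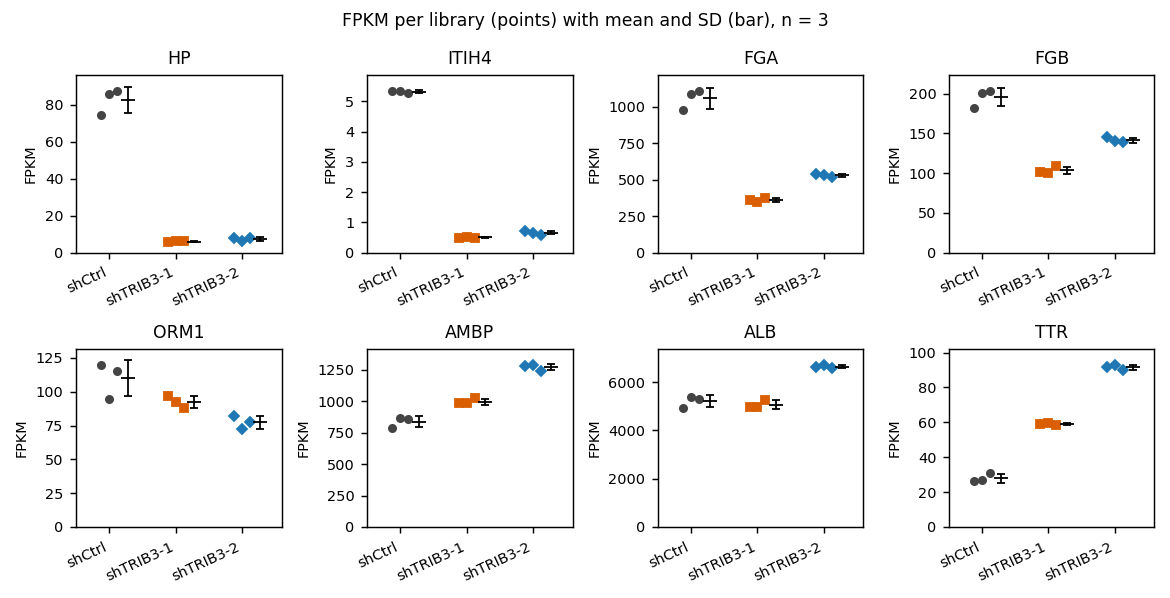
FPKM (y axes, from 0) of 8 members in each library, with 1 panel per gene, points for the 3 libraries of each group and bars for the mean ± SD (n = 3). HP and ITIH4 are near the axis in both hairpin groups, FGA and FGB lie between, ORM1 libraries of shCtrl and shTRIB3-1 overlap, and AMBP, ALB and TTR are highest with shTRIB3-2.

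The protease inhibitors and the heavy chains of inter-alpha-trypsin inhibitor, which become attached to hyaluronan in tissue matrix, held the second-lowest single member. ITIH4, a heavy chain relative cleaved by kallikrein, is encoded at chr3:52812962-52830688, next to ITIH3 and ITIH1. ITIH4 stood at 5.34, 5.35 and 5.28 FPKM in shCtrl, at 0.4896, 0.533 and 0.499 with shTRIB3-1 and at 0.704, 0.665 and 0.599 with shTRIB3-2. The hairpin groups lay at a mean of 9.53% and 12.3% of shCtrl, and no shTRIB3-2 library lay within the shTRIB3-1 range. For ITIH4 the log2 fold changes were -3.16 ± 0.098 and -2.85 ± 0.098, and with a pseudocount of 1 in place of 0.1 they were -2.07 and -1.93. The hairpins differed by 0.31 (adjusted p = 0.0207), a call lost without shTRIB3-1 replicate 1 (0.0527) or shTRIB3-2 replicate 1 (0.0687). Of ITIH4 exon bases, 70.3% are shared with an overlapping gene on the same strand (ENSG00000243696), so counts may have been split.

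ITIH3 lies 4.16 kb from ITIH4 and 2.7 kb from ITIH1, and both neighbours had smaller differences than ITIH4. ITIH3 stood at 126.5, 144 and 147 FPKM in shCtrl, at 102, 97 and 105 with shTRIB3-1 and at 123, 117.5 and 121 with shTRIB3-2, with log2 fold changes of -0.46 ± 0.051 and -0.20 ± 0.051. ITIH1 stood at 1.86, 2.10 and 1.825 FPKM in shCtrl, at 1.39, 1.14 and 0.993 with shTRIB3-1 and at 2.75, 2.23 and 2.64 with shTRIB3-2. ITIH1 libraries of shTRIB3-1 lay below shCtrl and those of shTRIB3-2 above it, with log2 fold changes of -0.68 ± 0.12 and 0.38 ± 0.12. The hairpins differed in ITIH1 by 1.06 (adjusted p = 3.07e-05) and in ITIH3 by 0.25 (adjusted p = 0.00179).

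ITIH2, on chromosome 10, encodes the heavy chain best represented in these cells. ITIH2 stood at 772, 787 and 803 FPKM in shCtrl, at 609, 580.2 and 622 with shTRIB3-1 and at 718, 707 and 690.4 with shTRIB3-2, with log2 fold changes of -0.38 ± 0.035 and -0.16 ± 0.035. The groups did not overlap, and the hairpins differed by 0.22 (adjusted p = 3.09e-04). Under quantile normalization the ITIH2 value with shTRIB3-2 changed sign, to 0.072.

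A2M, alpha-2-macroglobulin, traps proteases of many classes. A2M stood at 830.3, 889 and 903 FPKM in shCtrl, at 507, 476 and 521 with shTRIB3-1 and at 665, 647 and 638 with shTRIB3-2. Its 3 groups did not overlap, with log2 fold changes of -0.80 ± 0.043 and -0.43 ± 0.043 and a difference between hairpins of 0.37 (adjusted p = 2.57e-05). Of A2M exon bases, 8.88% lie opposite the antisense gene A2M-AS1.

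The lipocalins and the pattern or cytokine ligands lay on both sides of shCtrl. ORM1 and ORM2 encode the near-identical forms of alpha-1-acid glycoprotein, which binds basic and neutral drugs, and lie 3.39 kb apart on chromosome 9, so the split of fragments between them was uncertain. ORM1 stood at 119.8, 94.9 and 115 FPKM in shCtrl, at 96.7, 92.4 and 88.3 with shTRIB3-1 and at 82.15, 72.8 and 77.6 with shTRIB3-2. ORM2 stood at 82.8, 76.3 and 82.3 FPKM in shCtrl, at 72.6, 72.8 and 79.2 with shTRIB3-1 and at 59.35, 60.1 and 58.0 with shTRIB3-2. In both genes shTRIB3-1 overlapped shCtrl, and every shTRIB3-2 library lay below all the others.

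The log2 fold changes were -0.24 ± 0.075 and -0.50 ± 0.075 for ORM1 and -0.11 ± 0.042 and -0.44 ± 0.042 for ORM2. ORM1 and ORM2 were lower with shTRIB3-2 than with shTRIB3-1, by -0.26 and -0.34 on the log2 scale (limma, adjusted p = 0.0157 and 4.90e-05). The ORM1 call was lost without shTRIB3-1 replicate 1 (0.0585) or shTRIB3-2 replicate 2 (0.0687). The ratio of ORM2 to ORM1 was 0.736 ± 0.0602 in shCtrl, 0.812 ± 0.0759 with shTRIB3-1 and 0.765 ± 0.0538 with shTRIB3-2, within the spread of the libraries.

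LRG1, leucine-rich alpha-2-glycoprotein, is a secreted glycoprotein that modifies TGF-beta signalling in vessels. LRG1 stood at 32.5, 32.0 and 31.2 FPKM in shCtrl, at 12.95, 11.8 and 12.2 with shTRIB3-1 and at 10.9, 9.76 and 10.5 with shTRIB3-2. The shTRIB3-2 libraries were lowest without overlap, the opposite order to that of fibrinogen. The log2 fold changes of LRG1 were -1.37 ± 0.048 and -1.61 ± 0.048, and the hairpins differed by -0.25 (adjusted p = 0.00143).

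IL1RN, the interleukin-1 receptor antagonist, blocks interleukin-1 signalling. IL1RN stood at 10.8, 9.72 and 9.75 FPKM in shCtrl, at 2.36, 2.455 and 2.52 with shTRIB3-1 and at 4.24, 3.63 and 4.29 with shTRIB3-2. All 3 groups were apart, and shTRIB3-1 was lowest. Against shCtrl, IL1RN had log2 fold changes of -2.0 ± 0.073 and -1.30 ± 0.073, and the hairpins differed by 0.70 (adjusted p = 1.22e-05).

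AMBP encodes a precursor cut into alpha-1-microglobulin, a haem-binding lipocalin, and bikunin, the inhibitor chain to which the ITIH heavy chains are linked. AMBP stood at 785, 864 and 860.3 FPKM in shCtrl, at 985, 983 and 1026 with shTRIB3-1 and at 1283, 1289 and 1244 with shTRIB3-2. It was above shCtrl in all 6 hairpin libraries, with log2 fold changes of 0.26 ± 0.042 and 0.61 ± 0.042 and a difference between hairpins of 0.35 (adjusted p = 4.09e-05). The ratio of AMBP to ITIH2 in FPKM was 1.06 ± 0.0414 in shCtrl, 1.65 ± 0.0391 with shTRIB3-1 and 1.80 ± 0.0187 with shTRIB3-2 (SD, n = 3).

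LBP, which hands bacterial lipopolysaccharide to CD14, was below the filter. LBP held 10, 14 and 24 fragments in the shCtrl libraries, 8, 8 and 11 with shTRIB3-1 and 3, 1 and 4 with shTRIB3-2, too few for a fold change to be given. Its levels were 0.153, 0.211 and 0.367 FPKM in shCtrl, 0.128, 0.128 and 0.173 with shTRIB3-1 and 0.0481, 0.0158 and 0.0624 with shTRIB3-2.

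The serum amyloid A genes, whose inducible products ride on HDL in inflammation, lie together on chromosome 11. SAA1 was listed above 0 in 1 library of shCtrl, at 0.042 FPKM, and at 0 in the other 8. SAA2 held at most 2 fragments in any library. SAA4, the constitutive form at chr11:18231355-18236802, stood at 2.04, 1.749 and 1.73 FPKM in shCtrl, at 0.603, 0.5095 and 0.684 with shTRIB3-1 and at 2.55, 2.14 and 1.36 with shTRIB3-2. These SAA4 values came from 39 to 46 fragments in shCtrl, 11 to 15 with shTRIB3-1 and 30 to 55 with shTRIB3-2, so counting limited their precision.

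Every shTRIB3-1 library was below the rest in SAA4, while shTRIB3-2 overlapped shCtrl. Against shCtrl, SAA4 had log2 fold changes of -1.48 ± 0.19 and 0.087 ± 0.19, and the hairpins differed by 1.56 (limma, adjusted p = 4.23e-05). Of SAA4 exon bases, 75.6% are shared with the SAA2-SAA4 readthrough gene on the same strand. Without shTRIB3-2 replicate 1 the SAA4 value with shTRIB3-2 changed sign, to -0.10.

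AGT encodes angiotensinogen, the precursor of the angiotensin peptides that raise blood pressure. AGT stood at 427, 424 and 425.5 FPKM in shCtrl, at 356, 328 and 343.5 with shTRIB3-1 and at 435, 427 and 417 with shTRIB3-2. It was lower in every shTRIB3-1 library, while shTRIB3-2 overlapped shCtrl. For AGT the log2 fold changes were -0.31 ± 0.034 and 0.0022 ± 0.034, and the hairpins differed by 0.32 (adjusted p = 1.81e-05). Of AGT exon bases, 8.87% lie opposite exons of COG2.

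The carriers lay on both sides of shCtrl, from APOH at a log2 fold change of -1.09 to TTR at 1.08 with shTRIB3-1, so their medians of -0.10 with shTRIB3-1 and 0.26 with shTRIB3-2 do not describe any single carrier. TTR, transthyretin, carries thyroxine and retinol-binding protein, is a textbook negative acute-phase protein and is encoded at chr18:31557009-31598833. TTR stood at 26.2, 26.65 and 30.9 FPKM in shCtrl, at 59.05, 59.9 and 58.55 with shTRIB3-1 and at 91.55, 92.9 and 90.1 with shTRIB3-2. The groups did not overlap and the mean reached 212% of shCtrl with shTRIB3-1 and 328% with shTRIB3-2. Against shCtrl, TTR had log2 fold changes of 1.08 ± 0.051 and 1.71 ± 0.051, and the hairpins differed by 0.63 (adjusted p = 1.79e-06).

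ALB, serum albumin, carries fatty acids and keeps up the oncotic pressure of plasma. ALB stood at 4929, 5397 and 5314 FPKM in shCtrl, at 4975, 4965 and 5277 with shTRIB3-1 and at 6636, 6715 and 6584 with shTRIB3-2. The shTRIB3-1 libraries overlapped shCtrl and the shTRIB3-2 libraries lay above both. The log2 fold changes of ALB were -0.039 ± 0.051 and 0.35 ± 0.051, and the hairpins differed by 0.39 (adjusted p = 7.63e-05). The value with shTRIB3-1 changed sign, to 0.041, when each library was centred on its median. Under quantile normalization ALB had -0.25 with shTRIB3-1 and only 0.11 with shTRIB3-2. The ratio of TTR to ALB was 0.00536 ± 0.000441 in shCtrl, 0.0117 ± 0.00051 with shTRIB3-1 and 0.0138 ± 7.31e-05 with shTRIB3-2 (SD, n = 3).

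AHSG, fetuin-A, keeps calcium phosphate from precipitating in plasma. AHSG stood at 1743, 1827 and 1807 FPKM in shCtrl, at 1644, 1543 and 1618 with shTRIB3-1 and at 2065, 2018 and 1955 with shTRIB3-2. Its shTRIB3-1 libraries lay below shCtrl and its shTRIB3-2 libraries above, with log2 fold changes of -0.16 ± 0.041 and 0.17 ± 0.041 and a difference of 0.33 (adjusted p = 4.70e-05).

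APOH, beta-2-glycoprotein I, binds anionic phospholipids. APOH stood at 1635, 1757 and 1737 FPKM in shCtrl, at 783, 792 and 833 with shTRIB3-1 and at 936, 989 and 934.5 with shTRIB3-2. The groups were apart with shTRIB3-1 lowest, so APOH differed from shCtrl in the direction of the fibrinogen genes rather than of TTR. For APOH the log2 fold changes were -1.09 ± 0.042 and -0.84 ± 0.042, and the hairpins differed by 0.25 (adjusted p = 5.06e-04). GC, the vitamin D-binding protein, was below the filter, with 9 to 10 fragments per library in shCtrl, 6 to 10 with shTRIB3-1 and 2 to 8 with shTRIB3-2.

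Between the hairpins the members were mostly higher with shTRIB3-2. Of the 24 tested members, 19 were higher with shTRIB3-2 at an adjusted p under 0.05 whatever the fold, where 25.1% of all tested genes were. LRG1, ORM1 and ORM2 were lower, where 20.7% of all tested genes were. CP and HPR did not pass. With an absolute log2 difference above 1 as well, ITIH1 and SAA4 were called higher and no member lower, beside 0.284% and 1.79% of all tested genes. At an unadjusted p under 0.05 limma gave 3 lower members, and voom on the recovered fragments gave 0 with the fold and 3 without it. No share of all tested genes is given at the unadjusted threshold. The median difference over the 24 members was 0.32, beside 0.025 over all tested genes. A difference of hepatocyte secreted genes between the hairpins was known when the members were chosen. Neither this count nor the p-values between hairpins for single members are therefore independent evidence of a direction.

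**Figure D4:**
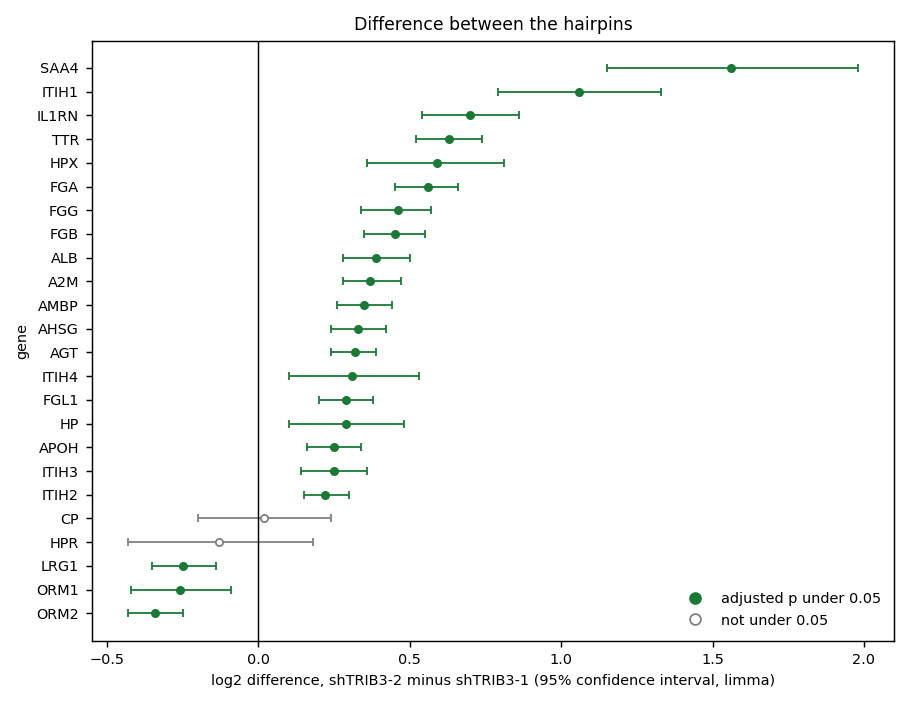
Log2 difference in FPKM + 0.1, shTRIB3-2 minus shTRIB3-1 (x axis), for each of the 24 tested members (y axis, ordered by the difference), with 95% confidence intervals from limma. Filled points have an adjusted p under 0.05, and only the intervals of CP and HPR include 0.

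Other acute-phase proteins that are not members were taken from textbook lists. These lists, and those of the pathway and the liver factors below, were made with earlier results of these data known. Their counts are therefore no independent support for the values of the members. Of 17 other positive ones, 14 were tested and 6 (C4A, C4B, HAMP, PLA2G2A, SERPINA3 and SERPING1) were called lower with each hairpin and 0 higher, beside 6.1% and 6.27% of all tested genes called lower and 5.39% and 6.06% called higher. By both limma and voom, 1 of them (VTN) was higher with each hairpin at an unadjusted p under 0.05. The share of all tested genes at that unadjusted threshold is not given here. HAMP, the iron hormone hepcidin, went from a mean of 16.4 FPKM in shCtrl to 0.693 and 0.758, with log2 fold changes of -4.46 ± 0.24 and -4.28 ± 0.24. HAMP held only 5 to 12 fragments per library with shTRIB3-1 and 9 to 13 with shTRIB3-2, so counting limited the precision of these folds. SERPINA3, alpha-1-antichymotrypsin, went from 308 to 19.8 and 19.98 FPKM (log2 fold changes of -3.95 ± 0.07 and -3.94 ± 0.07). PLA2G2A, the secreted phospholipase of group IIA, had -1.89 ± 0.064 and -1.79 ± 0.064, and SERPING1, the C1 inhibitor, -2.42 ± 0.17 and -2.08 ± 0.17. C4A and C4B are near-identical copies whose counts cannot be told apart. VTN, vitronectin, was above shCtrl, at 0.38 ± 0.03 and 0.90 ± 0.03.

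Of 9 other negative acute-phase proteins, 7 were tested and none was called in either direction with either hairpin, by limma or voom with the fold above 1. At an unadjusted p under 0.05 and any fold, both tools gave 2 lower and 3 higher with shTRIB3-1 and 0 lower and 7 higher with shTRIB3-2. These counts stand without the share of all tested genes at that threshold, so nothing is read from them. Their median log2 fold change was 0.042 with shTRIB3-1 and 0.44 with shTRIB3-2, and all 7 values were above 0 with shTRIB3-2. APOA1, the main protein of HDL, had log2 fold changes of 0.63 ± 0.059 and 0.70 ± 0.059. APOA2, RBP4 and SERPINC1 had 0.15, 0.15 and 0.042 with shTRIB3-1 and 0.63, 0.44 and 0.34 with shTRIB3-2.

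In the interleukin-6 and interleukin-1 pathway, 16 of 18 listed genes were tested. IL6R, the interleukin-6 receptor chain, was called higher with both hairpins (5.39% and 6.06% of all tested genes). By limma or voom, 0 genes of the list were called lower. At an unadjusted p under 0.05 and any fold, 9 (limma) and 10 (voom) were lower with shTRIB3-1 and 5 by either tool higher. For shTRIB3-2 either tool gave 8 lower and 7 higher. The share of all tested genes at that looser threshold is likewise not given, so nothing is read from these counts. IL6R stood at 13.2, 13.3 and 12.7 FPKM in shCtrl, at 32.1, 34.65 and 33.9 with shTRIB3-1 and at 33.5, 32.7 and 34.4 with shTRIB3-2, a log2 fold change of 1.36 ± 0.038 with each. STAT3, the factor the receptor activates, had -0.19 ± 0.032 and -0.15 ± 0.032, and IL6ST, which encodes gp130, had -0.062 ± 0.034 and 0.11 ± 0.034. SOCS3, a feedback inhibitor that STAT3 induces, was below the filter, at 0.979, 0.9255 and 0.731 FPKM in shCtrl, 0.744, 0.516 and 0.508 with shTRIB3-1 and 0.589, 0.671 and 0.534 with shTRIB3-2. SOCS3 in shTRIB3-1 replicate 1 lay above the lowest shCtrl library, and the rest of the hairpin libraries lay below it. NFKB1, NFKBIZ, TYK2 and NFKBIA had log2 fold changes of -0.75, -0.76, -0.73 and -0.69 with shTRIB3-1 and of -0.81, -0.73, -0.47 and -0.34 with shTRIB3-2, while JAK1 had 0.58 and 0.56. JAK2 had 0.27 and 0.34, and NR3C1, the glucocorticoid receptor, had 0.19 and 0.42.

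All 12 listed liver transcription factors were tested, and CEBPD, NR1H4 and ONECUT1 were called lower with both hairpins, beside 6.1% and 6.27% of all tested genes. NR1H4, the bile acid receptor, had log2 fold changes of -1.45 and -1.40, and ONECUT1 had -1.08 and -1.03. CEBPD, a C/EBP factor known for its induction in the acute phase, stood at 15.04, 14.3 and 18.3 FPKM in shCtrl, at 5.60, 5.45 and 5.83 with shTRIB3-1 and at 4.44, 4.36 and 4.62 with shTRIB3-2. The log2 fold changes of CEBPD were -1.47 ± 0.077 and -1.80 ± 0.077, and the order of the groups was that of LRG1. CEBPA had -0.87 ± 0.041 and -0.94 ± 0.041 and CEBPB -0.12 ± 0.034 and -0.28 ± 0.034. HNF4A had -0.23 ± 0.033 and -0.069 ± 0.033. The 2 listed factors with a mean log2 fold change above 0 over both hairpins were CEBPG (-0.068 and 0.19) and NR5A2 (-0.23 and 0.32).

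**Figure D5:**
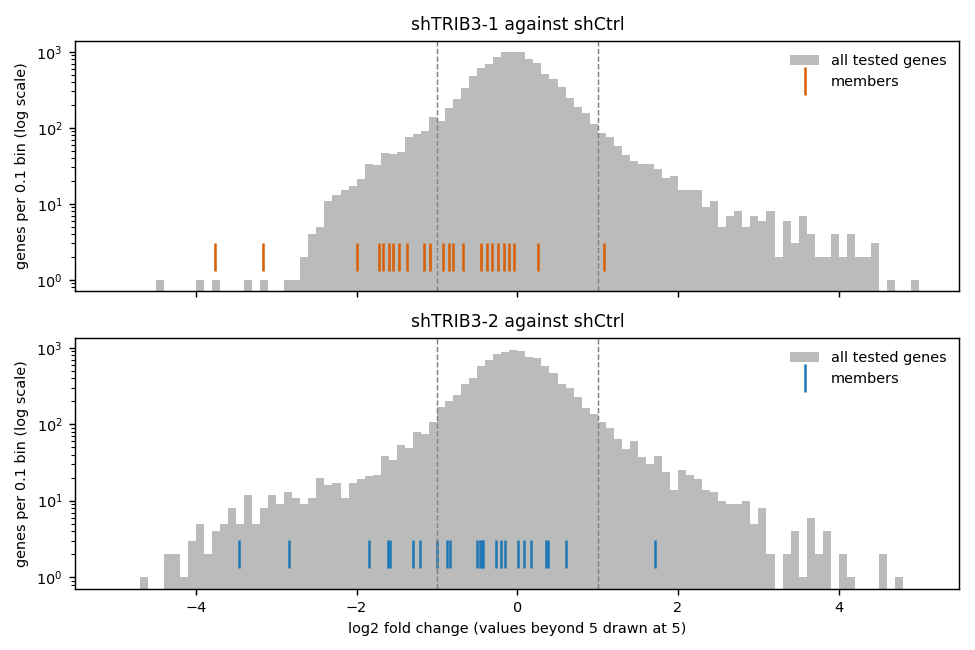
Number of all 11265 tested genes (y axes, log scale) by log2 fold change against shCtrl (x axis, bins of 0.1, values beyond 5 drawn at 5) for shTRIB3-1 (top) and shTRIB3-2 (bottom), with vertical ticks for the 24 tested members and dashed lines at a log2 fold change of 1 in either direction. The ticks lie mostly left of 0 in both panels, with HP and ITIH4 furthest left and TTR the single tick right of the upper dashed line.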

How the data were processed

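RNA-seq of 9 HepG2 libraries was used, 3 per group, grouped by the sample labels. The authors aligned reads to GRCh38 with STAR (study's methods), and the submitters' processing notes name HTSeq and R 3.2.0. The deposited values were FPKM, 1 column per library. The methods describe strand-specific libraries, but the labels name a different kit, and the counting annotation and the strand setting used in counting are not given in the sources used here. The authors tested with DESeq2, which needs counts, so limma 3.58.1 in R 4.3.3 was fitted instead to log2(FPKM + 0.1), with 3 group means over all 9 libraries, empirical Bayes moderation with a trend and Benjamini-Hochberg adjustment over 11265 genes (FPKM of at least 1 in at least 3 libraries). P-values are two-sided. Fold changes are on this scale, which understates those of low genes. Calls needed an absolute log2 fold change above 1 and an adjusted p under 0.05.

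Depth was recovered from the FPKM steps. Of 158305 values above 0 in the 18100 symbols seen in at least 6 libraries, 99.95% were whole fragments within 0.02, and the other 6104 symbols were not tried. No molecular identifiers are named in the sources, so fragment counts give counting error only. Replicates differed by a chi-square of 3.13 to 7.54 per degree of freedom, so no library was a copy of another. Nothing says that replicates were separate cultures, so p-values measure the spread between these samples, which may be technical. On simulated data for shTRIB3-1 against shCtrl, limma recovered 199 of 199 changed genes among 10869, with 0 false calls. The planted log2 fold changes all lay well beyond the call threshold, in genes above a minimum of fragments, and all genes had the same low spread. The simulation therefore cannot tell how calls behave near the threshold or for genes with few fragments.

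Members and lists were chosen with earlier results of these data known. All members are accounted for. Some listed genes and 1 motif are not reported here. Of the other lists, up to 4 genes a direction with the largest mean log2 fold change over both hairpins are named, with STAT3, IL6R, IL6ST, SOCS3, CEBPA, CEBPB, CEBPD and HNF4A. Gene positions came from GENCODE 44 and promoters from RefSeq, with 18 of 30 members matched. Alternatives were other pseudocounts, filters and scalings, voom on fragments, a replicate block and leaving out each library.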

Additional observations from a re-analysis of the deposited data

Results flagged for a closer look

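Of the members that differed between the hairpins by limma, adjusted over all tested genes (19 higher and 3 lower with shTRIB3-2), 3 are given here. They had a log2 difference above 1, or log2 fold changes against shCtrl of opposite sign with each at an adjusted p under 0.05. The latter rule uses values against shCtrl, so it only sorts the members. SAA4 differed by 1.56 on the log2 scale (shTRIB3-2 minus shTRIB3-1), from 11 to 15 fragments per library with shTRIB3-1 and 30 to 55 with shTRIB3-2, and ITIH1 by 1.06, on opposite sides of shCtrl. Both the SAA4 and the ITIH1 difference fell below 1 under some alternative settings. AHSG differed by 0.33, with the shTRIB3-1 libraries all below and the shTRIB3-2 libraries all above shCtrl. With median centring the AHSG value with shTRIB3-1 shrank to -0.082 and no longer met the adjusted p of that rule.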

How the results depend on the processing

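The counts of members called stayed within 1.5 times the reported ones under every alternative run: 10 to 11 lower with shTRIB3-1, 7 to 8 lower with shTRIB3-2, and 16 to 19 higher and 2 to 3 lower between hairpins whatever the fold. The count between hairpins with a log2 difference above 1 was not rerun. Its ITIH1 difference ran from 0.95 to 1.18 without 1 library and from 0.71 to 1.13 under the other settings. For SAA4 the ranges were 1.38 to 1.81 and 0.90 to 1.97. Of the other lists, 7 to 11 genes were lower, and quantile normalization raised the count higher with shTRIB3-2 from 1 to 2. Signs changed for small values only: CP between hairpins with median centring (-0.0089), ITIH2 with shTRIB3-2 under quantile normalization (0.072), AGT with shTRIB3-2 as TPM (-0.021) and ALB with shTRIB3-1 under median centring (0.041). Leaving out 1 library gave -0.10 to 0.34 for SAA4 with shTRIB3-2, -0.29 to 0.054 for HPR and -0.077 to 0.083 for CP between hairpins, and -0.013 to 0.018 for AGT with shTRIB3-2, the signs of which turned without shTRIB3-2 replicate 1 (SAA4, AGT -0.013, CP -0.033), shTRIB3-2 replicate 3 (HPR), shTRIB3-1 replicate 2 (CP) or shCtrl replicate 2 (AGT, -0.00012). The cause was not tested. With voom the calls between hairpins of HP (adjusted p = 0.0593) and ITIH4 (0.133) were lost, with no filter those of HP (0.0649) and ORM1 (0.0693), and with a pseudocount of 1 that of ITIH4 (0.0592). The ITIH4 value against shCtrl moved from -3.62 to -2.07 with shTRIB3-1.

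Over all genes, a pseudocount of 1 gave 404 lower and 376 higher with shTRIB3-1 (687 and 607 as reported), 477 and 411 with shTRIB3-2 (706 and 683), and 80 and 4 between hairpins (202 and 32), where quantile normalization gave 199 and 65. With no filter 914 and 1085, 930 and 1011, and 352 and 65 were called of 24204, and at FPKM of at least 5, 407 and 338, 419 and 382, and 119 and 7 of 7714. TPM moved the median of all genes with shTRIB3-1 from -0.056 to -0.11. Replicate numbers did not pair the libraries (correlation of same-numbered deviations -0.074 to 0.093, others -0.076 to 0.048), and a fit with the replicate block gave 11 and 1 members with shTRIB3-1, 7 and 1 with shTRIB3-2, 19 and 3 between hairpins, and 688 and 607 genes with shTRIB3-1. Depth limits SAA1, SAA2, LBP and GC, which held at most 24 fragments in any library where fragments could be recovered.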
